A study of Mus musculus with 4 samples.

Results

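The genes described here belong to the systems that handle peroxides, superoxide and reactive compounds: glutathione synthesis enzymes, glutathione transferases and peroxidases, peroxiredoxins, thioredoxins with their reductases, and superoxide dismutases. They were taken by gene symbol, as every gene whose symbol begins with Gsta, Gstk, Gstm, Gsto, Gstp, Gstt, Gstz, Mgst, Gpx, Prdx, Txn, Gcl or Sod, together with Gss and Gsr, on probe sets annotated to that gene alone. This gave 59 of the 18194 genes with such a probe set, on 111 probe sets, and each gene was read from the brightest of its probe sets by the mean of all 4 arrays. Of the 59 genes, 52 were bright enough to be tested, out of 13074 tested genes in all. The symbol rule also brings in thioredoxin-domain proteins whose known work is protein folding, proteasome function or splicing.

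Back skin RNA was compared between K5-IKKbeta transgenic mice (2 arrays) and wild type mice (2 arrays). The transgenic animals carried the gene of IKKbeta, the kinase that switches on the transcription factor NF-kB, under keratin K5 regulatory elements, which are active in basal keratinocytes of epidermis and hair follicle, so that the transgene was driven in keratinocytes while whole skin was measured. All animals of both groups were 32-day-old males on a C57BL6 X DBA2 background, and each array held pooled RNA of 3 mice of 1 genotype. The labels do not name the transgenic line or the number of founders. Values are RMA expression values on the log2 scale, fold changes are K5-IKKbeta over wild type, and adjusted p-values come from limma, adjusted by the Benjamini-Hochberg method across every tested gene, with a threshold of 0.05.

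Glutathione is a small thiol peptide made in the cytosol by glutamate-cysteine ligase (catalytic subunit Gclc, modifier subunit Gclm) and glutathione synthetase (Gss), and returned to its reduced form by glutathione reductase (Gsr). Glutathione transferases join it to reactive compounds, glutathione peroxidases use it to reduce peroxides, and the thioredoxin system is a parallel path in which thioredoxin reductases keep thioredoxins reduced for peroxiredoxins and other clients. Many of these genes are known targets of the transcription factor Nrf2, and in skin they serve barrier defence and the redox chemistry of keratinization.

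The arrays were alike in overall level, with medians of 6.91 to 6.96 over all 45101 probe sets, and the 2 arrays of a group correlated more closely across probe sets (0.994 in K5-IKKbeta, 0.996 in wild type) than arrays of different genotype (0.965 to 0.969). The probe set of the transgene's own gene with the largest change, 1454184_a_at of Ikbkb, measured 8.77 and 8.74 in K5-IKKbeta skin, against 6.50 and 6.54 in wild type skin. The brightest Ikbkb probe set, 1426207_at, rose less (log2 fold change 0.50, adjusted p = 0.045 over all probe sets), as did 1426333_a_at (0.47, adjusted p = 0.029). The Ikbkb probe sets 1432275_at (-0.15) and 1445141_at (0.14) did not pass. The basal keratinocyte marker Krt14 was bright on every array, at 13.81 and 13.50 in K5-IKKbeta skin and 13.19 and 13.07 in wild type skin. Markers of several cell types differed between the genotypes, where 23.4% of all 13074 tested genes rose and 10.6% fell. All 23 tested markers of hair shaft and inner root sheath fell, and their mean level was 8.82 and 9.34 in the K5-IKKbeta arrays, against 12.96 and 13.00 in the wild type arrays. All 19 tested macrophage and monocyte markers rose (mean level of the list 9.49 and 9.68 in K5-IKKbeta, against 8.35 and 8.34 in wild type). Of 12 tested sebaceous gland markers 8 rose and 2 fell (10.34 and 10.34, against 9.37 and 9.37), 11 of 13 skeletal muscle markers rose (12.92 and 12.67, against 11.90 and 11.83), and 7 of 10 fibroblast markers rose (12.43 and 12.69, against 11.87 and 11.75). In such whole-skin samples fewer cells of a type and less RNA per cell cannot be told apart, and the part of these shifts in any result below was not tested.

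K5-IKKbeta skin had less RNA of every glutathione synthesis and recycling gene, more of several glutathione peroxidases and superoxide dismutases, and changes in both directions among the transferases and the thioredoxin system. Of the 52 tested genes, 15 were higher (28.8%) and 10 lower (19.2%), against 23.4% higher and 10.6% lower among all 13074 tested genes, or 33.9% called in either direction. The K5-IKKbeta and wild type arrays did not overlap for 38 of the 52 genes (73.1%), against 69.5% of all tested genes. The median log2 fold change of the 52 genes was 0.075, close to the 0.09 of all tested genes, so the changes lay to both sides of the typical gene. Of the 25 changed genes 17 changed at least 1.5-fold and 6 at least 2-fold. After another quantile normalization 14 genes were higher and 12 lower. Over all genes the share of calls that were higher was then 59.2%, against 68.9% with the deposited values. With hair genes also left out before that normalization, 13 genes were higher and 12 lower, and the share was 57.8%. Leaving out either wild type pool left fewer calls, among these genes and also over all tested genes, and many of the 25 calls were not kept in every such fit. The median log2 fold change of the 52 genes was 0.0654 without wild type pool 1 and 0.0763 without wild type pool 2. Counts for the fits that left out an array are in the closing section.

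**Figure D1:**
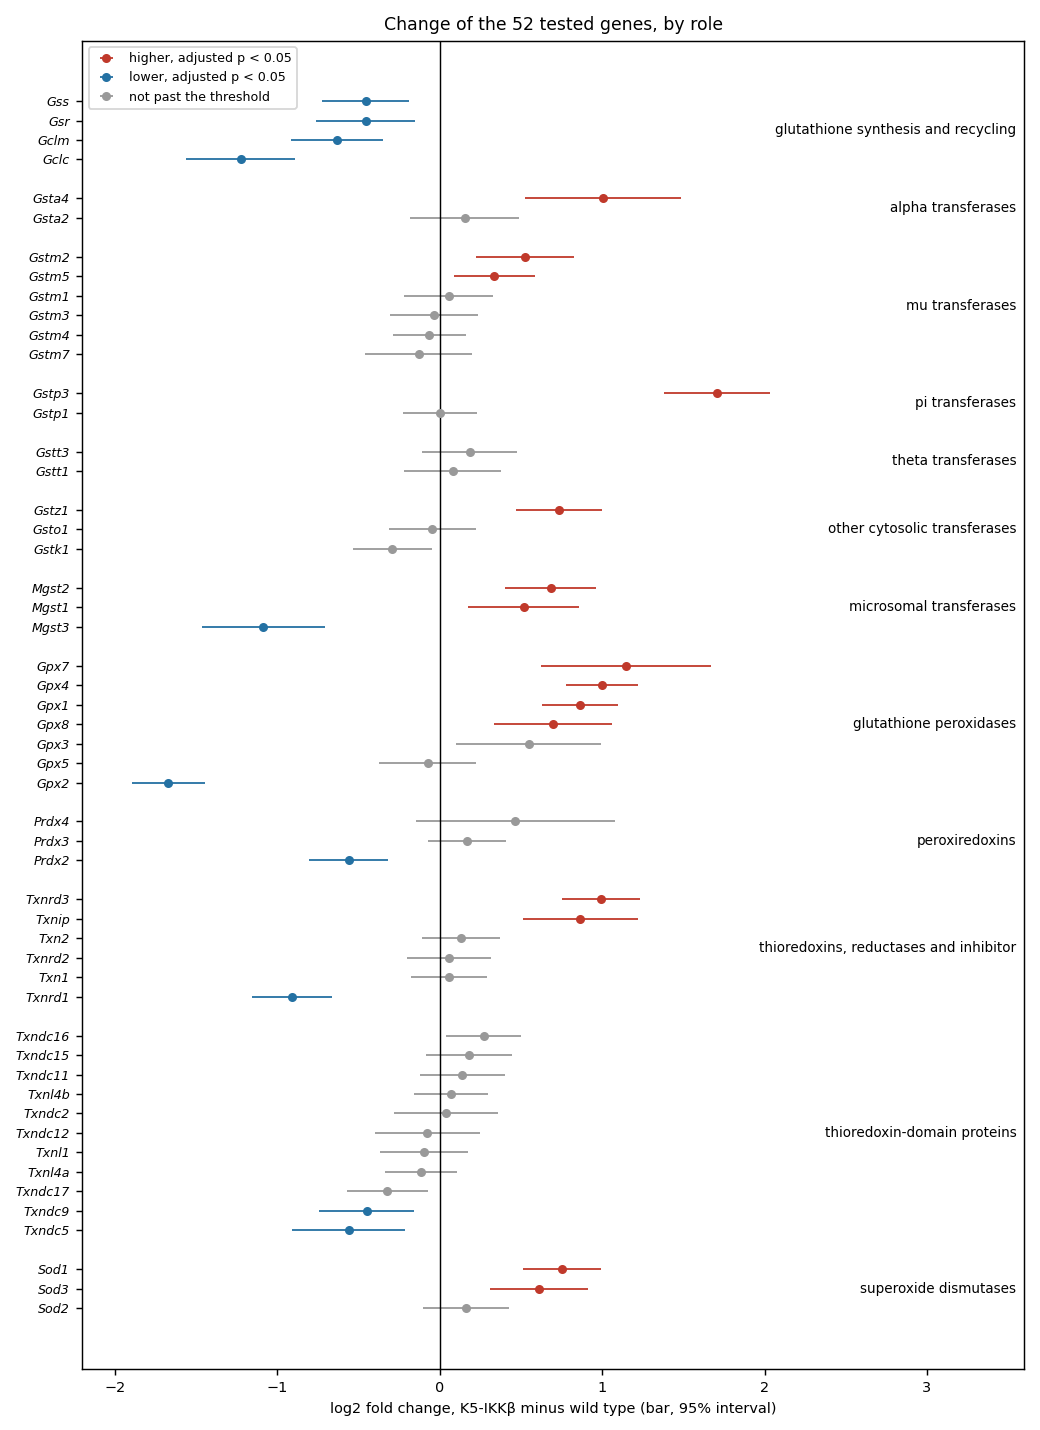
Log2 fold change of the 52 tested genes, K5-IKKbeta minus wild type, with its 95% interval from limma (2 arrays per group), ordered by role. Points in red were higher and points in blue lower at an adjusted p under 0.05, and grey points did not pass. All 4 genes of glutathione synthesis and recycling lie left of 0, and the largest changes are Gstp3 (1.71) and Gpx2 (-1.67).

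All 4 genes of glutathione synthesis and recycling fell in K5-IKKbeta skin, against 10.6% of all tested genes. Gclc, the catalytic subunit of the ligase that sets the rate of synthesis, measured 9.50 and 9.85 in K5-IKKbeta skin, against 10.91 and 10.90 in wild type skin (probe set 1424296_at). Both K5-IKKbeta pools lay more than a log2 unit below both wild type pools, a 2.34-fold fall (log2 fold change -1.23, SE 0.14, adjusted p = 0.0014). Gclm, the modifier subunit that raises the ligase's activity, measured 8.86 and 9.11 in K5-IKKbeta skin, against 9.60 and 9.63 in wild type skin (log2 fold change -0.63, adjusted p = 0.0087). Its groups were also apart, with the wider spread between the K5-IKKbeta pools. Gss, the second enzyme of synthesis, averaged 7.85 ± 0.01 in K5-IKKbeta and 8.31 ± 0.15 in wild type skin (SD, n = 2 each, adjusted p = 0.023), and Gsr averaged 8.86 ± 0.07 and 9.32 ± 0.20 (adjusted p = 0.035), both with a log2 fold change of -0.46. Other probe sets of Gclc (-0.85), Gclm (-0.79) and Gss (-0.48) fell as well over all probe sets, and the pair for Gsr had -0.46 and -0.44 (adjusted p = 0.066 and 0.079 over all probe sets). The fall of Gclc was kept whichever array was left out, whereas that of Gclm was lost without wild type pool 1 (adjusted p = 0.059) or pool 2 (0.066). Without wild type pool 2 Gss (adjusted p = 0.16) and Gsr (0.20) were also lost, as was Gss without wild type pool 1 (0.05) and Gsr without K5-IKKbeta pool 1 (0.068).

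Promoter sequence was set beside these changes for the genes with a window in the RefSeq promoter set (build GRCm38.p6). A window ran from 250 bases before to 50 after the annotated start, and 52 of the 59 genes had 70 windows. Gclc and Gsr were among the genes without a window, so their promoters were not searched. The core of the antioxidant response element, the DNA element through which Nrf2 acts, was searched as TGACNNNGC on both strands. It was found in 10 of the 70 windows (14.3%), against 12.4% of 32544 windows of all genes. By gene, it occurred in 3 of 13 genes that rose, 3 of 8 that fell and 3 of 25 tested genes that did not pass. An NF-kB pattern, GGG and CC with any 5 bases between them on either strand, was found in 46 of the 70 windows (65.7%) and in 51.0% of all windows. By gene, it occurred in 7 of 13 genes that rose, 7 of 8 that fell and 21 of 25 tested genes that did not pass. The shares by gene were not computed over all genes, and a gene with several windows has more chances of a match. Repeated sequences were removed from the windows of all genes but not from those of this gene set, and windows of the same gene can overlap. Each pattern was searched on its own, and neighbouring matches of the NF-kB pattern can overlap. A match is a description of letters in the window and not evidence of binding. The 250 bases before the start are shown 5′ to 3′ for a pair of genes that fell and a pair that rose with a match, the match in capitals (all 4 read on the reverse strand), and for Gpx2, the gene with the largest fall, whose window held neither pattern.
Gclm (chr3:122245307-122245556, plus strand): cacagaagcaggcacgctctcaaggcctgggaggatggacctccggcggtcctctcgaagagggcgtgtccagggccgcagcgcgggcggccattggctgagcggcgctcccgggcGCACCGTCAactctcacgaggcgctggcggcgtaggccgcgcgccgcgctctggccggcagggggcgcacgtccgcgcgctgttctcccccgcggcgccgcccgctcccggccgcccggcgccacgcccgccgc
Txnrd1 (chr10:82858956-82859205, plus strand): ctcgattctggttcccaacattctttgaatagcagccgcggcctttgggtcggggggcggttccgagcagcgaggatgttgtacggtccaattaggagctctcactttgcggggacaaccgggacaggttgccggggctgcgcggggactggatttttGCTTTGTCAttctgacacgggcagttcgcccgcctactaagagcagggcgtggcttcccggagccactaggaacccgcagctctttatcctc
Mgst1 (chr6:138140277-138140526, plus strand): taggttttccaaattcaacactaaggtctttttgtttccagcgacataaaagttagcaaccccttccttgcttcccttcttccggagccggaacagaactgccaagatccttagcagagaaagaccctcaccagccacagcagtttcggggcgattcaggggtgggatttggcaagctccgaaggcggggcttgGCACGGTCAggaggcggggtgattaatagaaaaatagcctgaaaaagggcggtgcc
Sod1 (chr16:90220512-90220761, plus strand): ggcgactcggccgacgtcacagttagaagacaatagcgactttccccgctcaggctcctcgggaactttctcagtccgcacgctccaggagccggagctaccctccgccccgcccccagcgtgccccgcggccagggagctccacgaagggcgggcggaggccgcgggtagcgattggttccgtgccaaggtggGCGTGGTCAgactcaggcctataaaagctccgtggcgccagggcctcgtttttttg
Gpx2 (chr12:76795555-76795804, minus strand): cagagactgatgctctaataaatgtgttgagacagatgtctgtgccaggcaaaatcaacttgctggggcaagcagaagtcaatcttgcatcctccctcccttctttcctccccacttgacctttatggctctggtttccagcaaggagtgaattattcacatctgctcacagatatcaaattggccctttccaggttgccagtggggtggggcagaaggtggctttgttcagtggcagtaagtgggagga
The match in Gclm begins 134 bases before the start, that in Txnrd1 92 bases before it, and those in Mgst1 and Sod1 both 56 bases before it. Txnrd1 had 3 windows and Mgst1 had 2, and in each of these genes only 1 window held a match, the one shown.

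Glutathione peroxidases changed in both directions, with 4 of 7 tested genes higher (57.1%) and 1 lower (14.3%). The shares of all tested genes were 23.4% higher and 10.6% lower. Gpx4, which reduces lipid peroxides within membranes, measured 12.48 and 12.46 in K5-IKKbeta skin, against 11.48 and 11.46 in wild type skin (1451695_a_at). The pools of each genotype nearly coincided, about a log2 unit apart between genotypes (1.999-fold, log2 fold change 0.999, SE 0.09, adjusted p = 7.0e-04). Gpx1, the main cytosolic peroxidase for hydrogen peroxide, measured 12.56 and 12.55 in K5-IKKbeta skin, against 11.64 and 11.74 in wild type skin (log2 fold change 0.87, adjusted p = 0.0013). Its groups were as clearly apart. Gpx2, a peroxidase known from epithelia of the gut, went the other way, at 7.33 and 7.31 in K5-IKKbeta skin, against 9.01 and 8.98 in wild type skin (1449279_at). This 3.19-fold fall had a log2 fold change of -1.67 with a 95% interval of -1.89 to -1.45 (adjusted p = 1.2e-04), and was the largest fall among all 52 genes.

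The peroxidases of the endoplasmic reticulum also rose. Gpx7 measured 9.45 and 10.08 in K5-IKKbeta skin, against 8.73 and 8.50 in wild type skin, 2.21-fold higher (log2 fold change 1.15, adjusted p = 0.0092). Gpx8 measured 9.62 and 10.02 in K5-IKKbeta skin, against 9.14 and 9.11 in wild type skin (log2 fold change 0.70, adjusted p = 0.015). For both genes K5-IKKbeta pool 2 was the higher pool, by 0.63 for Gpx7 and 0.41 for Gpx8. Mean levels of several marker lists were also higher in that pool: fibroblast (12.69, and 12.43 in K5-IKKbeta pool 1), hair shaft and inner root sheath (9.34 and 8.82), macrophage (9.68 and 9.49), adipocyte (10.27 and 10.09) and melanocyte (9.23 and 9.08). Those of muscle (12.67 and 12.92), basal epidermis (11.26 and 11.53), suprabasal epidermis (11.16 and 11.36) and lymphocytes (6.47 and 6.71) were lower in it. The neutrophil list was lower in it as well, and those of endothelium and sebaceous gland only slightly so. The part of these differences in the result was not tested. Without wild type pool 2 Gpx7 had a log2 fold change of 1.03 (adjusted p = 0.065), and Gpx8 was lost without wild type pool 1 (adjusted p = 0.079) or pool 2 (0.087). Gpx3, the secreted peroxidase of plasma, measured 11.28 and 10.94 in K5-IKKbeta skin, against 10.78 and 10.35 in wild type skin (log2 fold change 0.55, adjusted p = 0.065), and passed without K5-IKKbeta pool 2 (0.72, adjusted p = 0.015). Gpx5, known from the epididymis, had a log2 fold change of -0.07 (adjusted p = 0.68).

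**Figure D2:**
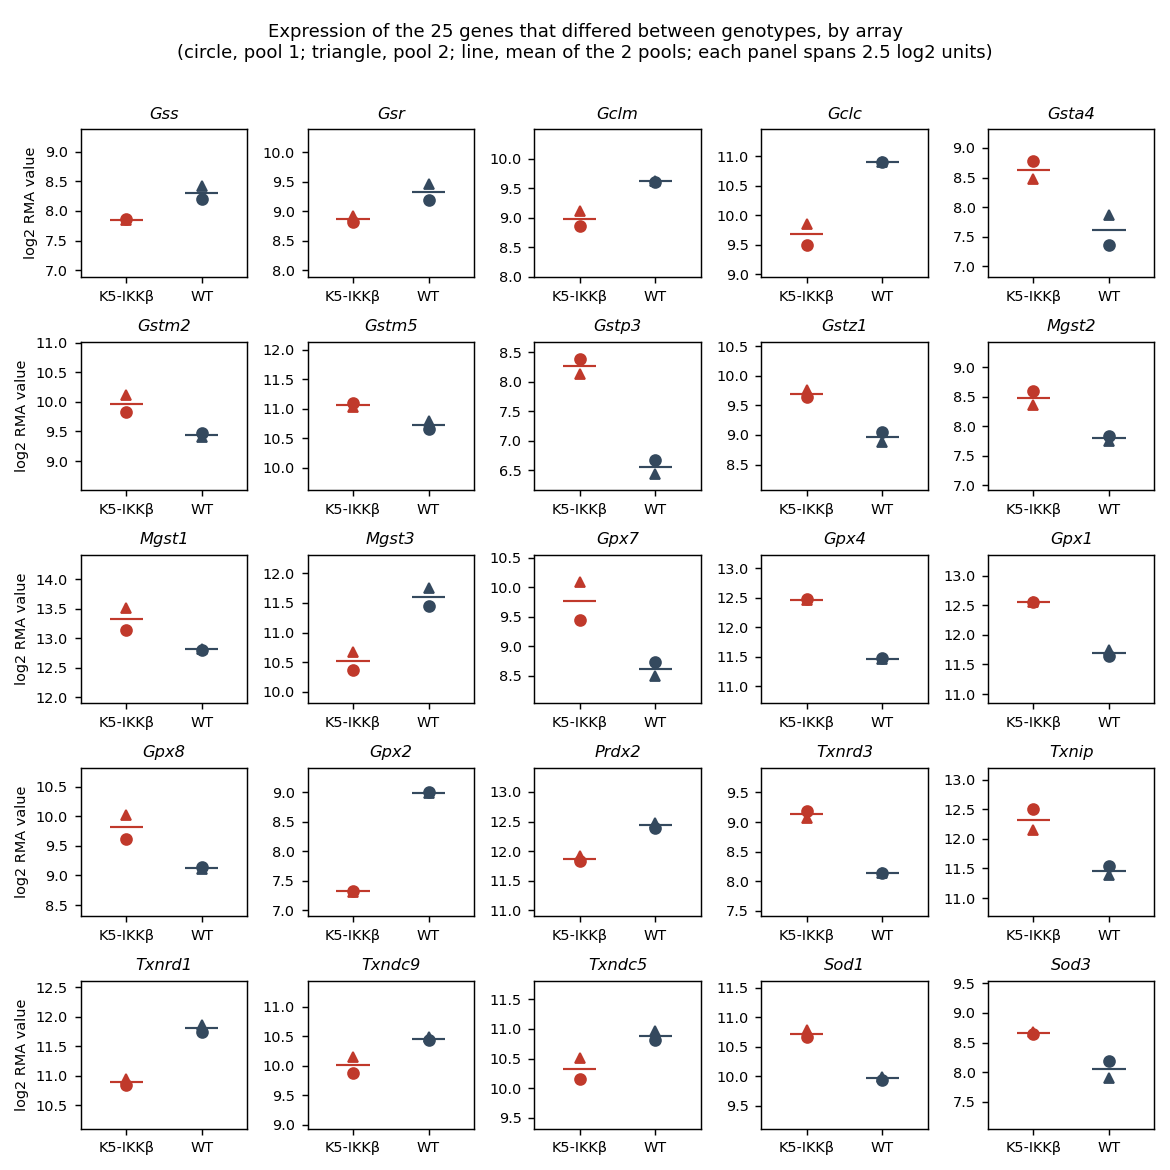
Log2 RMA values on each array for the 25 genes that differed between genotypes, 1 panel per gene, with K5-IKKbeta (red) left of wild type (dark grey); circles are pool 1, triangles pool 2, and the line is the mean of the 2 pools. Every panel spans the same number of log2 units, and the points of the 2 genotypes do not overlap in any of them. The pools of a genotype lie close for Gpx4 and Gpx2 and farther apart for Gpx7 and Gsta4.

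Among the soluble glutathione transferases, 5 of 15 tested genes rose and none fell, against 23.4% higher and 10.6% lower among all tested genes. In the pi class Gstp3 had the largest rise of all 52 genes, at 8.39 and 8.14 in K5-IKKbeta skin, against 6.67 and 6.44 in wild type skin (1424953_at). Both K5-IKKbeta pools stood far above both wild type pools, 3.26-fold apart (log2 fold change 1.71, 95% interval 1.38 to 2.03, adjusted p = 4.2e-04). Gstp1, which lies in the same gene cluster, measured 12.34 and 12.40 in K5-IKKbeta skin, against 12.35 and 12.39 in wild type skin. Its pools of both genotypes overlapped, with a log2 fold change of 0.00 and a 95% interval of -0.23 to 0.23. In the alpha class Gsta4, which conjugates the lipid peroxidation product hydroxynonenal, measured 8.77 and 8.47 in K5-IKKbeta skin, against 7.36 and 7.87 in wild type skin (2.01-fold, log2 fold change 1.01, adjusted p = 0.011). The wild type pools of Gsta4 were 0.52 apart, the widest gap between wild type pools among the 52 genes. Gsta2 measured 8.50 and 8.29 in K5-IKKbeta skin, against 8.10 and 8.39 in wild type skin, and its groups overlapped (adjusted p = 0.44).

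Of 6 tested mu class genes, which form a single cluster in the genome, 2 rose (33.3%) and none fell. Among all tested genes 23.4% rose and 10.6% fell. Gstm2 measured 9.82 and 10.11 in K5-IKKbeta skin, against 9.47 and 9.41 in wild type skin (log2 fold change 0.53, adjusted p = 0.021). Gstm5 measured 11.10 and 11.02 in K5-IKKbeta skin, against 10.65 and 10.80 in wild type skin (log2 fold change 0.34, adjusted p = 0.049). Neither call was kept in all fits that left out an array. That of Gstm2 was lost without wild type pool 1 (adjusted p = 0.094) or pool 2 (0.13), and that of Gstm5 on leaving out any of the arrays (adjusted p = 0.053 to 0.27). Gstm5 kept its call in 4 of the 15 alternatives, and also lost it with no filter on dim probe sets (adjusted p = 0.073) and under each other scaling (0.071 to 0.094). Gstm1, Gstm3, Gstm4 and Gstm7 had log2 fold changes of 0.06 to -0.13 and did not pass (adjusted p = 0.51 to 0.83). Mu class genes are close copies of each other and the probe sets read for Gstm1 and Gstm3 carry endings that mark shared sequence, so their values are uncertain for the single gene.

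Neither tested theta class gene passed. Gstt3 measured 8.05 and 7.78 in K5-IKKbeta skin, against 7.74 and 7.72 in wild type skin (log2 fold change 0.18, adjusted p = 0.28), and Gstt1 had a log2 fold change of 0.08 (adjusted p = 0.66). Gstz1, which also serves tyrosine breakdown as maleylacetoacetate isomerase, rose, with 9.64 and 9.75 in K5-IKKbeta skin, against 9.05 and 8.88 in wild type skin (log2 fold change 0.73, adjusted p = 0.0039). Gsto1, which reduces dehydroascorbate, measured 10.28 and 10.47 in K5-IKKbeta skin, against 10.38 and 10.47 in wild type skin, with overlapping groups (adjusted p = 0.78). Gstk1, a transferase of mitochondria and peroxisomes, had a log2 fold change of -0.29 (adjusted p = 0.068).

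The 3 microsomal transferases, membrane enzymes of the same family as leukotriene synthase, all changed, against 33.9% of all tested genes. Mgst3, which can make leukotriene and reduce lipid peroxides, measured 10.36 and 10.67 in K5-IKKbeta skin, against 11.45 and 11.75 in wild type skin. This was a 2.12-fold fall (log2 fold change -1.09, adjusted p = 0.0034), and its second, much dimmer probe set had a log2 fold change of -0.49 (over all probe sets, adjusted p = 0.031). Mgst2, which can also make leukotriene, rose, with 8.59 and 8.37 in K5-IKKbeta skin, against 7.84 and 7.75 in wild type skin (log2 fold change 0.68, adjusted p = 0.0064). Mgst1, a detoxifying enzyme of the endoplasmic reticulum and mitochondria, measured 13.15 and 13.51 in K5-IKKbeta skin, against 12.80 and 12.82 in wild type skin (log2 fold change 0.52, adjusted p = 0.034). The call of Mgst2 was lost without wild type pool 2 (adjusted p = 0.058), and that of Mgst1 without K5-IKKbeta pool 2 (0.33, adjusted p = 0.064), wild type pool 1 (adjusted p = 0.15) or wild type pool 2 (0.14). Mgst1 kept its call in 8 of the 15 alternatives. Its dim second probe set had a log2 fold change of -0.04 (adjusted p = 0.93 over all probe sets), and with the mean of both probe sets the gene had 0.24 (adjusted p = 0.074).

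In the thioredoxin system the reductases moved apart while the thioredoxins did not pass the test. Txnrd1, the cytosolic reductase, measured 10.84 and 10.95 in K5-IKKbeta skin, against 11.75 and 11.86 in wild type skin (1421529_a_at). All 3 of its probe sets fell over all probe sets, with log2 fold changes of -0.91, -0.72 and -1.29, and the gene fell 1.88-fold (SE 0.10 on the log2 scale, adjusted p = 0.0014). Txnrd3, a reductase with an added glutaredoxin domain that is known from testis, measured 9.19 and 9.07 in K5-IKKbeta skin, against 8.14 and 8.13 in wild type skin (1449623_at). Its 3 probe sets all rose (log2 fold changes 0.99, 0.94 and 1.08), and the gene rose 1.99-fold (adjusted p = 8.9e-04). Txnrd2, the mitochondrial reductase, had a log2 fold change of 0.06, with a 95% interval of -0.20 to 0.32.

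Txnip, which binds thioredoxin and blocks its active site, measured 12.51 and 12.14 in K5-IKKbeta skin, against 11.53 and 11.39 in wild type skin. Both K5-IKKbeta pools were above both wild type pools (log2 fold change 0.87, adjusted p = 0.0063), and a second probe set had a log2 fold change of 1.02 (over all probe sets, adjusted p = 0.0045). Without wild type pool 2 the call of Txnip was lost (adjusted p = 0.053). Txn1, the cytosolic thioredoxin, measured 12.59 and 12.56 in K5-IKKbeta skin, against 12.47 and 12.57 in wild type skin, with overlapping groups (adjusted p = 0.69), and Txn2, of mitochondria, had a log2 fold change of 0.13 (adjusted p = 0.36). The sign of the difference of Txn1 turned with the mean of its probe sets (-0.06) and with hair genes left out of the scaling (-0.05).

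Peroxiredoxins reduce peroxides with electrons from thioredoxin. Only Prdx2, Prdx3 and Prdx4 of this family had a probe set annotated to the gene alone, so its other members were not read. Prdx2, of the cytosol, fell, with 11.83 and 11.92 in K5-IKKbeta skin, against 12.38 and 12.48 in wild type skin (log2 fold change -0.56, adjusted p = 0.0078). Its dimmer probe set, however, measured 9.73 and 9.09 in K5-IKKbeta skin, against 9.70 and 9.20 in wild type skin, and did not pass (adjusted p = 0.95 over all probe sets). The call of Prdx2 was lost without wild type pool 2 (adjusted p = 0.073). Prdx4, of the endoplasmic reticulum, measured 9.75 and 10.54 in K5-IKKbeta skin, against 9.59 and 9.77 in wild type skin, with K5-IKKbeta pool 1 within the range of wild type (adjusted p = 0.21). It passed without that array (log2 fold change 0.86, adjusted p = 0.0015), and K5-IKKbeta pool 2 was the higher pool as for Gpx7 and Gpx8. Prdx3, of mitochondria, had a log2 fold change of 0.17 (adjusted p = 0.23).

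Superoxide dismutases turn superoxide into hydrogen peroxide, and 2 of the 3 rose (66.7%), against 23.4% of all tested genes. Sod1, of the cytosol, measured 10.66 and 10.78 in K5-IKKbeta skin, against 9.94 and 9.99 in wild type skin (log2 fold change 0.75, adjusted p = 0.0025). Its 4 other probe sets had log2 fold changes of 0.12 to 0.58, of which 1 passed over all probe sets. Sod3, secreted into the matrix, measured 8.65 and 8.68 in K5-IKKbeta skin, against 8.19 and 7.91 in wild type skin (log2 fold change 0.61, adjusted p = 0.012), and was lost without wild type pool 2 (0.47, adjusted p = 0.081). Sod2, the mitochondrial enzyme that NF-kB is known to induce in many cells, measured 11.01 and 11.08 in K5-IKKbeta skin, against 10.79 and 10.98 in wild type skin. The groups of Sod2 were barely apart, with a log2 fold change of 0.16 and a 95% interval of -0.10 to 0.43 (adjusted p = 0.30), and none of its 4 probe sets passed.

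Of 11 tested thioredoxin-domain proteins 2 fell (18.2%) and none rose, against 10.6% lower and 23.4% higher among all tested genes. Txndc5, a disulfide isomerase of the endoplasmic reticulum, measured 10.16 and 10.50 in K5-IKKbeta skin, against 10.81 and 10.97 in wild type skin (log2 fold change -0.56, adjusted p = 0.028). Txndc9, which regulates a cytosolic chaperonin, averaged 10.01 ± 0.19 in K5-IKKbeta and 10.46 ± 0.04 in wild type skin (SD, n = 2 each, log2 fold change -0.45, adjusted p = 0.032). Over all probe sets the second probe set of Txndc5 had a log2 fold change of -0.29 and did not pass (adjusted p = 0.19). The 3 probe sets of Txndc9 had -0.44 to -0.45, and none passed over all probe sets (adjusted p = 0.054 to 0.085). Both calls were lost without K5-IKKbeta pool 1 (adjusted p = 0.052 for Txndc5 and 0.082 for Txndc9), wild type pool 1 (0.084 and 0.13) or wild type pool 2 (0.16 for each). Txndc17, a cytosolic thioredoxin-like reductase, measured 11.67 and 11.62 in K5-IKKbeta skin, against 11.89 and 12.04 in wild type skin (log2 fold change -0.32, adjusted p = 0.055), and 1 of its 3 other probe sets fell (-0.50, adjusted p = 0.034 over all probe sets). The other 8, among them Txnl1 of the proteasome and Txnl4a of the spliceosome, had log2 fold changes of -0.12 to 0.27 and did not pass.

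Probe sets of 1 gene were largely of a kind. Of the 111 probe sets, 21 were higher and 15 lower over all probe sets, against 10.4% higher and 5.88% lower of the 45101 on the array. The 45101 include dim probe sets, while 88.1% of the 59 genes passed the brightness filter, so the sets differ in brightness. Among tested genes the shares were 28.8% higher and 19.2% lower for this gene set, against 23.4% and 10.6% for all. Of the 30 genes with several probe sets none had probe sets called in both directions, and all 13 called probe sets that did not stand for their gene had the sign of the one that did. The other 29 genes rested on 1 probe set each, Gstp3, Gpx1, Gpx2 and Gpx7 among them.

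**Figure D3:**
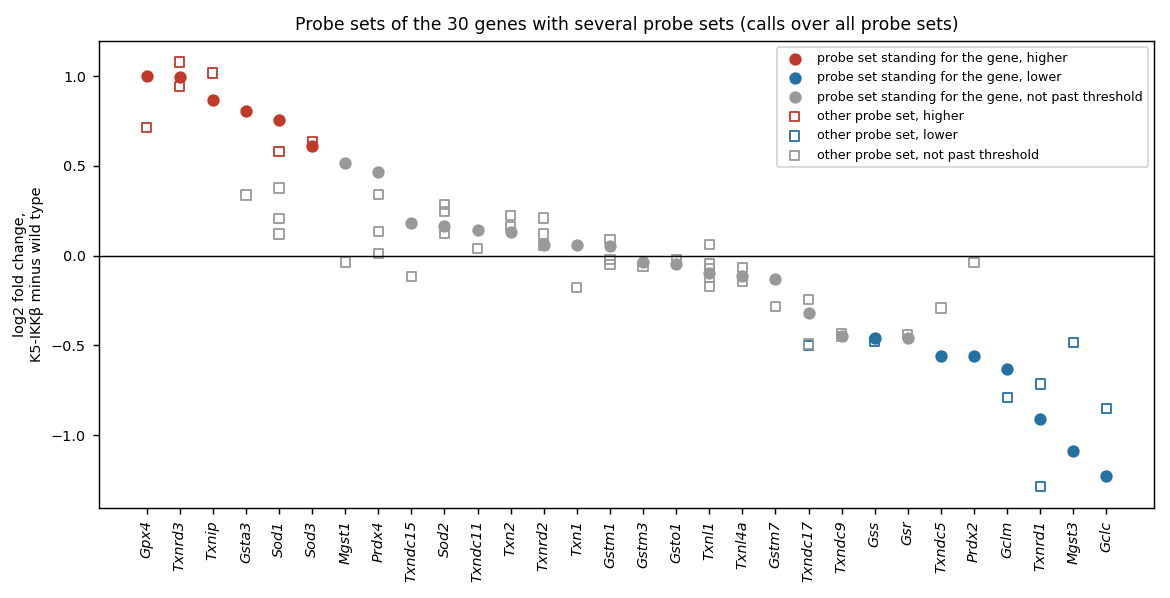
Log2 fold change, K5-IKKbeta minus wild type, of every probe set of the 30 genes with several probe sets, genes ordered by the probe set that stands for them (filled circles; open squares are the others). Colours give calls over all 45101 probe sets, red for higher, blue for lower and grey for not past the threshold. The 3 probe sets of Txnrd3 lie together near 1, those of Txnrd1 all lie below -0.7, and no gene has red and blue points together.

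The 7 genes that were too dim to test had means below the filter of 6.33 on the log2 scale. The brightest of them was Gsta3 (6.29) and the dimmest tested gene was Txndc2 (6.72). Gsta3 measured 6.64 and 6.74 in K5-IKKbeta skin, against 5.97 and 5.80 in wild type skin, and passed over all probe sets (log2 fold change 0.80, adjusted p = 0.0059). Gstt2 measured 6.85 and 6.47 in K5-IKKbeta skin, against 5.58 and 5.76 in wild type skin (0.99, adjusted p = 0.0081 over all probe sets). For both genes the K5-IKKbeta mean alone lay above the filter, so their difference is given as a description. Gstm6, Gstt4, Gsto2, Gpx6 and Txndc8 had log2 fold changes of -0.18 to 0.09.

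Genes next to these in glutathione metabolism also moved both ways. A list of 27 tested genes covered glutathione breakdown and transport, glutaredoxins and eicosanoid synthesis. It also held Slc1a5, Glo1, Hagh, Gstcd, Clic1 and Clic4. Of the 27 genes, 12 rose (44.4%) and 7 fell (25.9%), against 23.4% and 10.6% of all tested genes. Chac1, which breaks down glutathione within the cell, measured 7.27 and 7.20 in K5-IKKbeta skin, against 11.66 and 11.75 in wild type skin. Its pools lay more than 4 log2 units apart between genotypes, a 22.2-fold fall (log2 fold change -4.47, adjusted p = 3.5e-06). Lap3, an aminopeptidase that can split the cysteine-glycine product, fell 2.58-fold (log2 fold change -1.37, adjusted p = 2.3e-04). Alox5ap, which presents arachidonate for leukotriene synthesis, rose 2.77-fold (adjusted p = 1.7e-04), and Hpgds, the glutathione-dependent prostaglandin synthase of haematopoietic cells, rose 2.26-fold (adjusted p = 4.3e-04). The tested macrophage markers rose in the same arrays, and their part in these rises was not tested.

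Of 15 tested regulators of the Nrf2 pathway 4 rose (26.7%) and 2 fell (13.3%), shares near the 23.4% and 10.6% of all tested genes. Among them were Nfe2l1, a relative of Nrf2, up by 0.89 (adjusted p = 0.0019) and Bach2, a repressor of antioxidant genes in lymphocytes, up by 0.84 (adjusted p = 0.0024), both as log2 fold changes. Keap1 (0.38, adjusted p = 0.023) and Bach1 (0.32, adjusted p = 0.039) rose as well. Bcl2l1 (-0.39, adjusted p = 0.024) and Cdkn1a (-0.57, adjusted p = 0.02) fell. Nfe2l2, which encodes Nrf2 itself, had a log2 fold change of 0.14 (adjusted p = 0.30). Of 20 tested Nrf2 target enzymes outside the gene set, 9 rose (45%) and 2 fell (10%), the share that fell being near that of all tested genes. Aldh3a1, an aldehyde dehydrogenase, measured 10.75 and 10.31 in K5-IKKbeta skin, against 7.76 and 7.59 in wild type skin, a 7.24-fold rise (adjusted p = 1.3e-04). Abcc3, an exporter of conjugates, rose 4.13-fold (adjusted p = 5.3e-04) and Cbr3, a carbonyl reductase, 2.44-fold (adjusted p = 0.0014). Hmox1, which breaks down haem, measured 8.51 and 8.65 in K5-IKKbeta skin, against 9.74 and 9.86 in wild type skin (2.32-fold lower, adjusted p = 5.7e-04). The other gene that fell was Srxn1, which restores overoxidized peroxiredoxins (log2 fold change -0.98, adjusted p = 7.7e-04), and Nqo1 had 0.10 (adjusted p = 0.60).

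NADPH is the electron source of both reductase systems. In a list drawn up around its supply, 6 of 14 tested genes rose (42.9%) and 1 fell (7.14%), where 23.4% and 10.6% of all tested genes did. The list was not narrowed to enzymes that make NADPH themselves. NAD kinase (Nadk) rose 2.05-fold (log2 fold change 1.03, adjusted p = 0.0013), the mitochondrial dehydrogenase Idh2 1.84-fold (adjusted p = 0.0017), malic enzyme Me1 1.79-fold (adjusted p = 0.011) and H6pd, of the endoplasmic reticulum, 1.49-fold (adjusted p = 0.011). The gene that fell was Me2, a mitochondrial malic enzyme (-0.51, adjusted p = 0.039). Of 16 tested enzymes that produce oxidants, 9 rose (56.2%) and 2 fell (12.5%). The subunits of the phagocyte oxidase Cyba and Cybb rose 3.31-fold (adjusted p = 1.0e-04) and 2.31-fold (adjusted p = 0.0038), and Noxo1, an oxidase organizer, 1.93-fold (adjusted p = 0.0094). Duoxa1, a maturation factor of dual oxidase, fell 2.12-fold (adjusted p = 0.0036). Of 24 tested genes of other peroxide and metal handling, 8 rose (33.3%) and 3 fell (12.5%), the share that fell being near that of all tested genes. Mt4, a metallothionein of stratified epithelium, measured 10.72 and 10.50 in K5-IKKbeta skin, against 13.01 and 13.11 in wild type skin (log2 fold change -2.45, adjusted p = 6.8e-05). Pon3, a lactonase, rose by a log2 fold change of 1.57 (adjusted p = 8.2e-04), Selenos, a selenoprotein of the endoplasmic reticulum, by 0.75 (adjusted p = 0.0037), and Sesn3, a stress-induced sestrin, had -0.92 (adjusted p = 0.004). Catalase (Cat) had a log2 fold change of 0.43 and did not pass (adjusted p = 0.11).

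**Figure D4:**
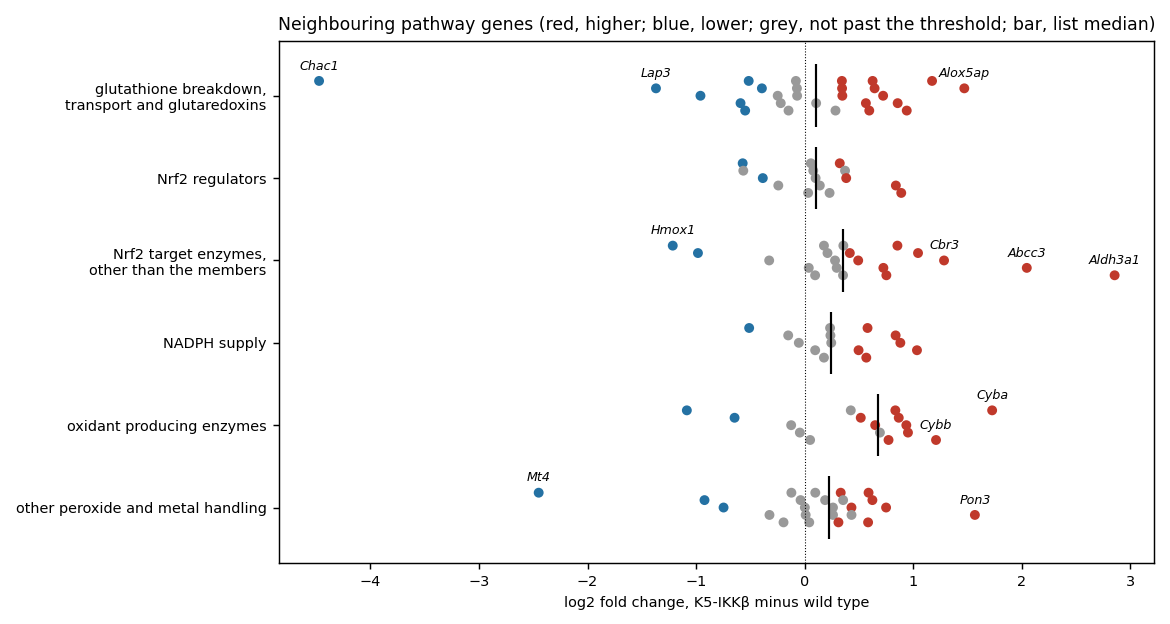
Log2 fold change, K5-IKKbeta minus wild type, of the tested genes of 6 neighbouring pathway lists, 1 point per gene, with the list median as a bar and some of the larger changes named. Red points were higher, blue points lower and grey points not past the threshold. Chac1 lies farthest to the left at -4.47 and Aldh3a1 farthest to the right at 2.86, and the list medians run from 0.10 to 0.67.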

How the data were processed

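The authors' deposited values are log2 RMA expression values, 1 per probe set and array; RMA is named per the submitters' processing notes, without a version, and the log2 scale was read from the range of the values (2.65 to 14.7). RNA was taken with Trizol and columns and labelled from 5 micrograms, per the labels' protocols. The genome build and annotation were not given in the sources used here, and detection calls were not used here.

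Probe sets were named from the platform annotation: 34958 had 1 symbol, 932 several and 9211 none, and 34754 matched the RefSeq gene table of GRCm38.p6, with 0 symbols changed. Genes with several symbols on all their probe sets were not analysed here. Each gene was read from its probe set with the highest mean, and a gene was tested where that mean passed the 40th percentile over the whole array. The fit used limma 3.58.1 under R 4.3.3 (two-sided tests from lmFit and eBayes, with genotype alone in the design and no further normalization), with 4.00 prior and 2 residual degrees of freedom; 5775 genes had an unadjusted p under 0.05. Other probe sets were fitted in the same way over all 45101. The procedure was tested on simulated data. RMA compresses large changes, and the number of arrays limits the precision. The labels do not say that arrays with the same number are paired. Since each array is a pool, p-values rest on pool-to-pool spread only and say nothing of the spread among mice.

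The genes, the 18 neighbouring and marker lists, and the alternatives were chosen with earlier results of these data known. Values per array are given for the 20 largest changes past the threshold and the brightest tested gene of each role; in each neighbouring list up to 4 genes past the threshold are named, and others, such as those named because few changed, were picked after their values were seen. The marker lists not in the report are in the closing section. Alternatives were other filters, probe set choices, scalings, moderation, a test against a 1.2-fold change, a replicate block and leaving out each array.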

Additional observations from a re-analysis of the deposited data

How the results depend on the processing

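No gene called higher or lower in K5-IKKbeta skin turned its sign under any of the 15 alternatives, and Gpx2 and Gpx4 kept the call in all that gave them a value. The genes changed numbered 13 to 16 higher and 10 to 12 lower under other filters, probe set choices, scalings and the trend setting of eBayes. A test against a 1.2-fold change left 10 higher and 4 lower (1608 and 740 over all genes, 6 probe sets lower). Without moderation across genes 1 was higher and 1 lower (80 and 54 over all genes), and 0 probe sets passed either way; that test has 2 degrees of freedom. Another quantile normalization gave 23 probe sets lower, as it did with hair genes left out. The median log2 fold change was 0.1401 with the filter at the 60th percentile, 0.0356 after another quantile normalization, 0.035 with arrays centred on their medians and 0.009 with hair genes left out; the cause was not tested. Of all calls 59.2% were higher after another quantile normalization. Leaving out an array gave 7 to 15 genes higher and 4 to 10 lower (1570 to 3096 and 669 to 1544 over all genes), 6 to 22 probe sets higher and 4 to 15 lower, and medians of 0.0506 to 0.0987. Fits without an array have 1 residual degree of freedom and take a lone array to vary like the other group.

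The log2 fold changes that turned their sign belonged to genes past no threshold. They were -0.0613 for Txn1 with the mean of probe sets, -0.0215 for Gstm1 and -0.0127 for Txnrd2 after another quantile normalization, and -0.0396 for Gstp1 and -0.0014 for Txndc2 with centred arrays. With hair genes left out they were -0.0501 for Txn1, -0.0966 for Gstp1, -0.0343 for Gstm1 and -0.019 for Txnrd2. Over the fits that left out an array the range was -0.1422 to 0.0499 for Gsto1, -0.235 to 0.0844 for Txndc12, -0.0603 to 0.1705 for Gstm1, -0.036 to 0.1495 for Txnrd2 and -0.0359 to 0.1961 for Gstt1. It was -0.0848 to 0.1619 for Txndc2, -0.0306 to 0.0313 for Gstp1, -0.1133 to 0.0414 for Gstm3, -0.1889 to 0.0398 for Gpx5 and -0.2704 to 0.0143 for Gstm7.

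Deviations of same-numbered pools correlated at 0.25, over 2 pairs, and the labels do not pair them. A fit with the pool number as a replicate block gave 15 genes higher and 10 lower (3088 and 1465 over all genes, 20 and 14 probe sets), losing Gstm5 (adjusted p = 0.062) and gaining Gpx3.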

Other observations

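Markers of further cell types were also counted, beside 23.4% higher and 10.6% lower among all tested genes. Of 16 tested markers of suprabasal epidermis 7 rose and 9 fell, and of 10 of basal epidermis 7 rose and none fell. Of 10 melanocyte markers 8 fell, and the mean level of the list was 9.08 and 9.23 in K5-IKKbeta skin, against 10.19 and 10.27 in wild type skin. Of 9 endothelial markers 7 rose (77.8%), and of 9 adipocyte markers 5 (55.6%). Of 6 lymphocyte markers 3 rose (50%), and only those 6 of the 12 with a probe set were bright enough to test. Of 5 neutrophil markers 1 rose (20%), near the 23.4% of all tested genes. None of the tested endothelial, adipocyte, lymphocyte or neutrophil markers fell. RMA gives no values of 0, so no marker could be read as absent.

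Between the 2 K5-IKKbeta pools, Prdx4 differed by 0.79 on the log2 scale, the widest gap among the 52 genes, followed by Gpx7 at 0.63. In both, pool 2 was higher.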
